A study of Mus musculus with 10 samples.

Results

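Type I interferon response genes are the genes that cells switch on when interferon-alpha or interferon-beta, secreted alarm signals of viral and bacterial infection, bind their shared receptor. The list examined here had 41 members, matched by symbol or older symbol, out of the genes on an Illumina MouseWG-6 array of 45281 probes. For 39 of the 41 there were probe rows, 73 probes in all, and 19 of these genes had several probes. Isg15 and Xaf1 had no row and were not analysed here. Ifit1, Oas1a, Oas3, Ifi44 and Parp9 were not well above background on any of the 10 arrays, which left 34 members among 11185 genes tested.

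The samples were splenic B cells of C57BL/6 mice, with no age in the sources used here. IL-10+ B cells, which secreted the anti-inflammatory cytokine IL-10, were measured on 5 arrays, IL-10- B cells on 3 and total B cells on 2. A treatment text common to every sample gives 5 h with LPS (a bacterial Toll-like receptor 4 ligand) at 10 µg/ml, PMA (an activator of protein kinase C) at 50 ng/ml and the calcium ionophore ionomycin at 500 ng/ml. The sorted fractions were obtained with a kit that captures secreted IL-10, followed by flow sorting, while the handling of total B cells rests on the shared text, so sorting and fraction cannot be told apart in the comparisons with total B cells. No source says whether replicates are separate mice. The p-values therefore measure only how these samples differ among themselves, which may be technical.

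Cytosolic sensors of RNA and DNA, and Toll-like receptors, lead to phosphorylation of interferon regulatory factors and to transcription of interferon genes. Secreted interferon then signals through the Jak1 and Tyk2 kinases to a complex that includes Stat2 and Irf9 and binds the interferon-stimulated response element (ISRE) in the promoters of its targets. The induced proteins include the sensors themselves, antiviral enzymes and ubiquitin-like modifiers. In B cells this programme is known to modulate Toll-like receptor responses and antibody formation.

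The ISRE was searched as GAAA, any 2 bases and GAAA again, or TTTC, any 2 bases and TTTC on the other strand, overlapping matches counted, in RefSeq windows of the GRCm38.p6 build that run from 250 bases before to 50 bases after an annotated start. A window was given for 33 members, and 15 of them (45.5%) held a match: Bst2, Ddx58, Eif2ak2, Ifih1, Ifit1, Ifit3, Ifitm2, Ifitm3, Isg15, Oas1a, Oas1g, Oas3, Rsad2, Stat2 and Trim21. Of all 27025 genes with a window, 3.99% held a match, as did 3.44% of all 32851 windows. The members without a window were Dhx58, Mx1, Mx2, Oas2, Parp9, Parp14, Usp18 and Zbp1. A match is a description of the letters and not evidence of a bound site.

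The promoters below belong to genes that passed the test between IL-10+ and IL-10- cells in either direction and that held a match, with Ifit3, which did not pass there, for contrast. Capitals mark the match. Ifih1 and Rsad2 were higher in IL-10+ cells. Ifitm2, Ifitm3 and Stat2 were lower. The windows were chr2:62646206-62646505 (minus strand) for Ifih1, chr12:26456403-26456702 (minus strand) for Rsad2, chr7:140955912-140956211 (minus strand) for Ifitm2, chr7:141010695-141010994 (minus strand) for Ifitm3, chr10:128270248-128270547 (plus strand) for Stat2 and chr19:34583279-34583578 (plus strand) for Ifit3.
Ifih1: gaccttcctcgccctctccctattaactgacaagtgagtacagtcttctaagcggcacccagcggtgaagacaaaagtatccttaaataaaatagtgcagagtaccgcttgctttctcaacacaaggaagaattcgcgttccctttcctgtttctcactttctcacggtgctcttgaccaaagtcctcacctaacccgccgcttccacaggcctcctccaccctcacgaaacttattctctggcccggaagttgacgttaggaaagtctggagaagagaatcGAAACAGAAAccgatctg
Rsad2: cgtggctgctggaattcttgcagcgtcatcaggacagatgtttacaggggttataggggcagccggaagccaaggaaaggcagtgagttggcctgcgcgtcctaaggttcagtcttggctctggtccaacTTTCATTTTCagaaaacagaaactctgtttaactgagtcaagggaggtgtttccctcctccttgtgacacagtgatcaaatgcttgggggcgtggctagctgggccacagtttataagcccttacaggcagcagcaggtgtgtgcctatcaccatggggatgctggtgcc
Ifitm2: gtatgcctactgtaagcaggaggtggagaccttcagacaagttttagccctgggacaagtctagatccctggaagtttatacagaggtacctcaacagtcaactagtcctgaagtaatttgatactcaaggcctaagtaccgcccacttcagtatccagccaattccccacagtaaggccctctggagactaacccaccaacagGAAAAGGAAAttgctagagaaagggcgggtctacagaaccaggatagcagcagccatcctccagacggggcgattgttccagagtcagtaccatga
Ifitm3: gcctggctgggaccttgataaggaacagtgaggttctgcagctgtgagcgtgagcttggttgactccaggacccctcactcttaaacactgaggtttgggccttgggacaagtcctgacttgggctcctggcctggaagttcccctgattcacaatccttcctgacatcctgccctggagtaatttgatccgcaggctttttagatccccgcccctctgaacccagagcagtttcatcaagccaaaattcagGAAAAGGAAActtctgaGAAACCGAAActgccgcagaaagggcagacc
Stat2: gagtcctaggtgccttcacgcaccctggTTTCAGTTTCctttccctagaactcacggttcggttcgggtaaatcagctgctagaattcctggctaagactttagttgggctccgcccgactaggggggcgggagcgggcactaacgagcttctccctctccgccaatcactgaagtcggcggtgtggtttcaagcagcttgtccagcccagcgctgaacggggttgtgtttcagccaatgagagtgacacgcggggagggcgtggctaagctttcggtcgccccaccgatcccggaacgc
Ifit3: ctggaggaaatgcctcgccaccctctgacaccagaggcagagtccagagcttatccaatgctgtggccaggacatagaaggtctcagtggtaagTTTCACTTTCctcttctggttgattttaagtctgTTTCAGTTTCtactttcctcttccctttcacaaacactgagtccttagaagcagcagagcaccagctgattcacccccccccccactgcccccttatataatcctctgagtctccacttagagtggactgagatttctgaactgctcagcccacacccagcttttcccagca

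Counted from the annotated start at 0, with upstream bases negative, the match began at base 32 in Ifih1, at -120 in Rsad2, at -46 in Ifitm2 and at -222 in Stat2. Ifitm3 held 2 matches, at 2 and 19, and Ifit3 held 2, at -156 and -122. Genes on both sides of the comparison carried the motif: it was present in 2 of the 4 members with higher levels in IL-10+ cells, in 3 of the 6 lower ones that had a window, and in 6 of the 17 that did not pass and had a window.

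An array detected 13910 to 15610 of its 45281 probes, and precision is limited by how few arrays there were. Each member probe was read from 18 to 68 beads per array. Below, a level is the log2 signal of a gene's brightest probe after background correction and quantile normalization. The log2 scale carries an offset of 16, which understates the change of dim probes. Levels of different genes come from different probes and were not compared. Values are given in the order of replicates 1 to 5 for IL-10+ cells, 2, 3 and 5 for IL-10- cells, and 1 and 2 for total B cells. The arrays lay on 2 slides: slide 1 held IL-10+ replicates 1, 2 and 3 and IL-10- replicates 2 and 3, and slide 2 held the other arrays, all total B cells included. Slide 2 thus held 1 IL-10- array, and any value within slide 2 that involves IL-10- cells rests on that single array. Il10 itself was at 12.90 to 13.65 log2 on IL-10+ arrays, 7.55 to 7.92 on IL-10- arrays and 9.89 to 10.63 on total B arrays, which follows the sort. Of 5 B cell markers 4 were tested, of which Cd79b and Ms4a1 were lower in IL-10+ than in IL-10- cells. Cd79b, a signalling chain of the B cell receptor, had a mean level (± SD) of 10.51 ± 0.28 log2 on the 5 IL-10+ arrays, 11.26 ± 0.07 on the 3 IL-10- arrays and 11.22 ± 0.22 on the 2 total B arrays. Ms4a1, which encodes CD20, was higher than in total B cells in IL-10+ cells (0.66 ± 0.14 log2, SE, adjusted p 0.00721) and in IL-10- cells (1.37 ± 0.15, adjusted p 0.000786), whereas Cd79b was lower in IL-10+ cells (-0.71 ± 0.19, adjusted p 0.0231). Blk and Pax5 passed in none of the 3 comparisons. In bulk RNA such as this, fewer cells of a type and less RNA per cell cannot be told apart.

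Between the sorted fractions the interferon response genes moved in both directions. Of the 34 members tested, 4 were higher in IL-10+ cells than in IL-10- cells (limma, adjusted p under 0.05), namely Ifih1, Rsad2, Cmpk2 and Ifit2. Of these, Cmpk2 passed the detection filter only through IL-10+ arrays, so its call is not independent of that filter. Another 7 were lower, namely Cgas, Ifitm2, Ifitm3, Samhd1, Irf1, Stat2 and Zbp1, and 23 did not pass. Over all 11185 genes 9.12% were called higher and 9.01% lower, so the 11.8% of members called higher was close to that background, and the 20.6% called lower was above it on a count of 7 genes. The median log2 difference was -0.03 for the members and -0.03 for all genes. With the 3 same-numbered pairs of arrays as a block, 5 members were higher and 11 lower, beside 684 and 647 of all 11185 genes. Oasl1 was added to the higher set and Dhx58, Ifi35, Irf7, Oas2 and Parp14 to the lower, while Zbp1 no longer passed (adjusted p 0.0536). Leaving out 1 array at a time gave 2 to 5 higher and 2 to 9 lower. The counts were 2 and 2 without IL-10- replicate 2, beside 697 and 558 of all genes. The lower count was 2 without IL-10- replicate 3, and it was 4 without IL-10+ replicate 2, 3 or 5. When arrays were scaled to their median over all probes, which moved the median of all genes to 0.48 log2, 8 members were higher and 2 lower (Cgas and Ifitm2). Over all genes 2440 were then higher and 78 lower.

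**Figure D1:**
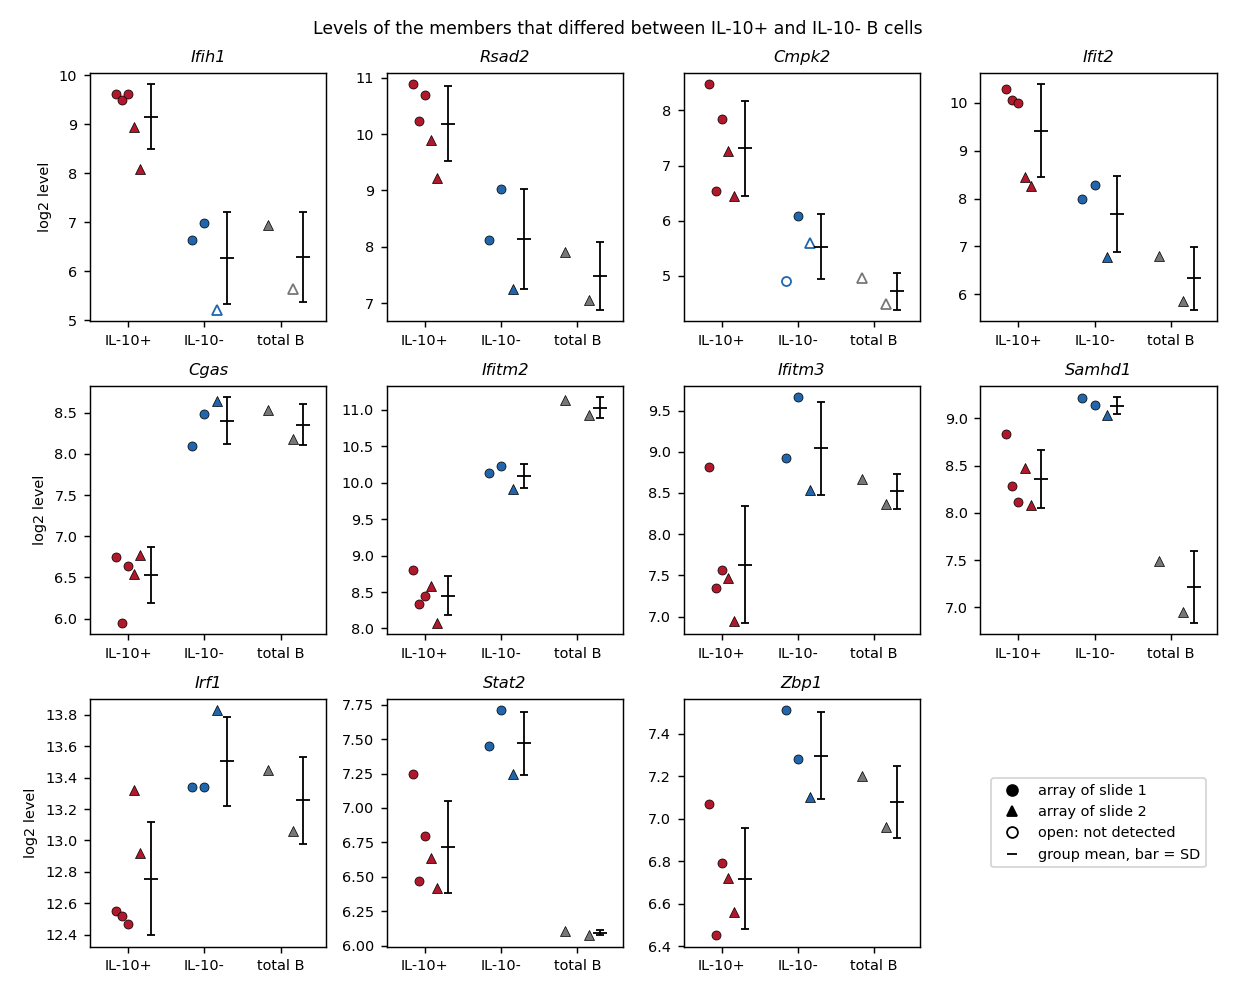
Level (log2 signal) on every array of the 11 members that passed between IL-10+ and IL-10- cells, with IL-10+, IL-10- and total B cells side by side; circles are arrays of slide 1, triangles arrays of slide 2, open symbols arrays on which the probe was not detected, and bars the group mean ± SD. The IL-10+ arrays of Ifih1, Rsad2 and Cmpk2 lie above all IL-10- arrays, those of Cgas, Ifitm2, Samhd1, Irf1, Stat2 and Zbp1 below them, and Ifit2 and Ifitm3 overlap.

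The cytosolic sensors were split. Ifih1 encodes MDA5, a helicase that senses long double-stranded RNA, and its level was 9.61, 9.50, 9.63, 8.94 and 8.08 on the 5 IL-10+ arrays, 6.64, 6.98 and 5.21 on the 3 IL-10- arrays, and 6.94 and 5.63 on the 2 total B arrays. Every IL-10+ array stood above every other array, and the IL-10- and total B arrays overlapped. Ifih1 was 7.35-fold higher in IL-10+ than in IL-10- cells (log2 difference 2.88 ± 0.48, SE, adjusted p 0.00297). The difference was 2.78 within slide 1, where it passed, and 3.30 within slide 2. The probe was not detected on IL-10- replicate 5 or on total B replicate 2. Replicate 5 was the only IL-10- array of slide 2, so the 3.30 was measured against background.

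Cgas, listed in the file under an older clone name, encodes the enzyme that detects cytosolic DNA and makes the messenger cyclic GMP-AMP. Its level was 6.75, 5.95, 6.64, 6.54 and 6.77 on the 5 IL-10+ arrays, 8.09, 8.48 and 8.64 on the 3 IL-10- arrays, and 8.53 and 8.18 on the 2 total B arrays. Here all IL-10+ arrays lay below all others, with replicate 2 the lowest, and IL-10- and total B arrays overlapped. Cgas was 3.66-fold lower in IL-10+ than in IL-10- cells (-1.87 ± 0.21 log2, SE, adjusted p 0.000351), with -1.84 within slide 1 and -1.98 within slide 2. It was also 3.54-fold lower than in total B cells (adjusted p 0.000575), whereas the difference of IL-10- from total B cells was 0.05 ± 0.26 log2.

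Zbp1, a sensor of left-handed nucleic acid that can trigger cell death, had a level of 7.07, 6.45, 6.79, 6.72 and 6.56 on the 5 IL-10+ arrays, 7.51, 7.28 and 7.10 on the 3 IL-10- arrays, and 7.20 and 6.96 on the 2 total B arrays. The IL-10+ arrays were all below the IL-10- arrays, though narrowly. It was 1.49-fold lower (-0.58 ± 0.16 log2, SE, adjusted p 0.0321), and its difference was 0.04 (adjusted p 0.923) when arrays were scaled to their median over all probes.

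Ddx58 and Dhx58 complete the sensors. Ddx58 encodes RIG-I, a sensor of short RNA with a free triphosphate end, and Dhx58 encodes LGP2, a helicase that modulates both RNA sensors. Ddx58 differed by 0.22 ± 0.41 log2 between the sorted fractions (95% interval -0.68 to 1.13) and Dhx58 by -0.58 ± 0.39 (95% interval -1.45 to 0.28). Neither passed, and the intervals leave room for a difference in either direction.

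Among the transcription factors 2 of 5 were lower in IL-10+ cells and none was higher, beside 9.01% and 9.12% of all genes. These counts are too small for a statement about the group. Stat2, a subunit of the complex that binds the ISRE, was at 7.25, 6.47, 6.80, 6.64 and 6.42 on the 5 IL-10+ arrays, 7.45, 7.71 and 7.25 on the 3 IL-10- arrays, and 6.11 and 6.08 on the 2 total B arrays. All IL-10- arrays were at or above the highest IL-10+ array, with 7.25 on the nearest array of each fraction, and both total B arrays were below every sorted array. Stat2 was 1.69-fold lower in IL-10+ than in IL-10- cells (-0.75 ± 0.19 log2, SE, adjusted p 0.0217).

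Irf1, a factor that interferons and NF-kB induce and that drives guanylate-binding protein and antigen presentation genes, was at 12.55, 12.52, 12.47, 13.32 and 12.92 on the 5 IL-10+ arrays, 13.34, 13.34 and 13.83 on the 3 IL-10- arrays, and 13.45 and 13.06 on the 2 total B arrays. The 3 lowest arrays were the IL-10+ arrays of slide 1, and IL-10+ replicate 4 came close to the IL-10- arrays. It was 1.68-fold lower (-0.75 ± 0.22 log2, SE, adjusted p 0.0368), and -0.83 within slide 1 and -0.71 within slide 2. Irf1 passed with slide fitted as a block (-0.78 ± 0.13, adjusted p 0.00364) and with the replicate block (-0.87 ± 0.12, adjusted p 0.0178). Irf9, the DNA-binding subunit of the ISRE complex, differed by -0.26 ± 0.18 log2, Irf7, the factor that amplifies interferon-alpha transcription, by -0.79 ± 0.45, and Irf5, a factor downstream of Toll-like receptors, by -0.01 ± 0.15, and none of them passed. For Irf5 the 95% interval of the difference was -0.34 to 0.32 log2.

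The group of IFIT proteins, viperin and nucleotide enzymes held 3 of the 4 members that were higher and 1 that was lower, of 6 tested. Of all genes 9.12% were called higher and 9.01% lower. Rsad2 encodes viperin, an enzyme that makes a chain-terminating nucleotide, and Cmpk2, its neighbour on chromosome 12, supplies nucleotide triphosphates. The level of Rsad2 was 10.88, 10.23, 10.70, 9.90 and 9.23 on the 5 IL-10+ arrays, 8.12, 9.03 and 7.26 on the 3 IL-10- arrays, and 7.91 and 7.06 on the 2 total B arrays. All IL-10+ arrays were above all others, with IL-10- replicate 3 nearest, and IL-10- and total B arrays overlapped. Rsad2 was 4.14-fold higher in IL-10+ than in IL-10- cells (2.05 ± 0.44 log2, SE, adjusted p 0.0103), with 2.03 within slide 1 and 2.30 within slide 2.

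Cmpk2, listed as Tyki in the file, was at 8.47, 6.54, 7.85, 7.26 and 6.44 on the 5 IL-10+ arrays, 4.90, 6.09 and 5.60 on the 3 IL-10- arrays, and 4.95 and 4.48 on the 2 total B arrays. It was detected on all IL-10+ arrays, on 1 IL-10- array and on neither total B array. Cmpk2 was 3.44-fold higher (1.78 ± 0.45 log2, SE, adjusted p 0.0209), and without IL-10- replicate 2 it no longer passed (adjusted p 0.0865). Its probe passed the detection filter only through IL-10+ arrays, so the call is not independent of that filter. The fold rests in part on IL-10- values that were not detected.

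Ifit2 encodes a protein of the IFIT family, which binds viral RNA and blocks its translation. Its level was 10.28, 10.06, 10.00, 8.44 and 8.27 on the 5 IL-10+ arrays, 7.98, 8.28 and 6.77 on the 3 IL-10- arrays, and 6.80 and 5.87 on the 2 total B arrays. The 3 IL-10+ arrays of slide 1 were the highest, and IL-10- replicate 3 lay just above IL-10+ replicate 5, so the fractions overlapped. The 3.31-fold higher mean (1.73 ± 0.53 log2, SE, adjusted p 0.0473) passed narrowly, and it failed in 8 of 10 omissions of a single array, most clearly when IL-10- replicate 5 was left out (adjusted p 0.147). Within slide 1 the difference was 1.98 (adjusted p 0.00644) and within slide 2 it was 1.58. Ifit2 passed with slide fitted as a block (1.84 ± 0.20 log2, SE, adjusted p 0.000489) and with the replicate block (1.76 ± 0.16, adjusted p 0.00723).

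Ifit3, the partner of the other IFIT proteins, did not pass between the fractions, at 0.77 ± 0.50 log2 (adjusted p 0.309). Isg20, an exonuclease that degrades viral RNA, differed by 0.23 ± 0.23 log2. Samhd1 went the other way: this enzyme, which removes deoxynucleotides and limits retroviruses, was at 8.84, 8.28, 8.12, 8.48 and 8.08 on the 5 IL-10+ arrays, 9.22, 9.14 and 9.04 on the 3 IL-10- arrays, and 7.49 and 6.95 on the 2 total B arrays. The 3 groups formed separate bands, with IL-10- arrays highest and total B arrays lowest. Samhd1 was 1.71-fold lower in IL-10+ than in IL-10- cells (-0.77 ± 0.19 log2, SE, adjusted p 0.0189).

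Both interferon-induced transmembrane proteins on the list, which hinder fusion of viruses with endosomes, were lower in IL-10+ cells. Ifitm2 was at 8.80, 8.33, 8.45, 8.58 and 8.08 on the 5 IL-10+ arrays, 10.14, 10.23 and 9.91 on the 3 IL-10- arrays, and 11.13 and 10.93 on the 2 total B arrays. The 3 groups did not overlap, with total B arrays highest and IL-10+ arrays lowest. Ifitm2 was 3.13-fold lower in IL-10+ than in IL-10- cells (-1.65 ± 0.17 log2, SE, adjusted p 0.000186), at -1.66 within slide 1 and -1.58 within slide 2.

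Ifitm3 was at 8.82, 7.35, 7.57, 7.47 and 6.95 on the 5 IL-10+ arrays, 8.92, 9.66 and 8.54 on the 3 IL-10- arrays, and 8.67 and 8.37 on the 2 total B arrays. IL-10+ replicate 1 stood above IL-10- replicate 5 and both total B arrays, while the other 4 IL-10+ arrays were below all other arrays. Ifitm3 was 2.66-fold lower (-1.41 ± 0.38 log2, SE, adjusted p 0.0275), with -1.38 within slide 1 (adjusted p 0.133) and -1.33 within slide 2. Ifitm3 passed with slide fitted as a block (-1.36 ± 0.32, adjusted p 0.0162) and with the replicate block (-1.75 ± 0.16, adjusted p 0.00723). Bst2, the membrane protein tetherin that holds budding virions at the cell surface, was detected on 3 of 10 arrays and differed by 0.03 ± 0.33 log2. Lgals3bp, a secreted glycoprotein that binds galectins, differed by -0.17 ± 0.31 log2.

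Of the other called members, leaving out a single array ended the call between the sorted fractions in 7 of 10 omissions for Irf1 (adjusted p up to 0.113, with IL-10- replicate 5 left out) and in 6 of 10 for Ifitm3 (up to 0.101, with IL-10- replicate 3 left out) and Zbp1 (up to 0.120, with IL-10- replicate 2 left out). It did so in 2 of 10 for Samhd1 and Stat2, in 1 of 10 for Cmpk2 (adjusted p 0.0865, with IL-10- replicate 2 left out), and in none for Cgas, Ifih1, Ifitm2 and Rsad2.

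No member of the group of Mx, Oas, PKR and ADAR enzymes (8 tested) or of the group of ubiquitin-like and ADP-ribose modifiers (5 tested) passed between the sorted fractions without a block. With slide fitted as a block Oasl1 (1.14 ± 0.13 log2, SE, adjusted p 0.00057) and Mx2 (1.01 ± 0.30, adjusted p 0.0385) were higher. Parp14 was then lower (-0.66 ± 0.20, adjusted p 0.0429). Without a block the differences of the first group ranged from -0.93 for Oas2, an oligoadenylate synthetase that activates RNase L, to 1.07 for Oasl1, a relative that holds back Irf7 translation in mice. Oas1g, an oligoadenylate synthetase close in sequence to its neighbours and therefore uncertain, differed by 0.11 ± 0.34 log2. Mx1, a dynamin-like GTPase, was detected on 3 of 10 arrays and differed by 0.84 ± 0.53 log2. Eif2ak2, the kinase PKR that halts translation on double-stranded RNA, differed by 0.33 ± 0.43, and Adar, an RNA-editing deaminase, by -0.17 ± 0.21. Usp18, the protease that removes ISG15 and damps receptor signalling, showed the widest spread of the modifiers, from 6.09 to 9.30 on IL-10+ arrays and 6.75 to 8.12 on IL-10- arrays. Ifi35, which binds the related protein Nmi, differed by -0.65 ± 0.25 log2 (adjusted p 0.101).

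**Figure D2:**
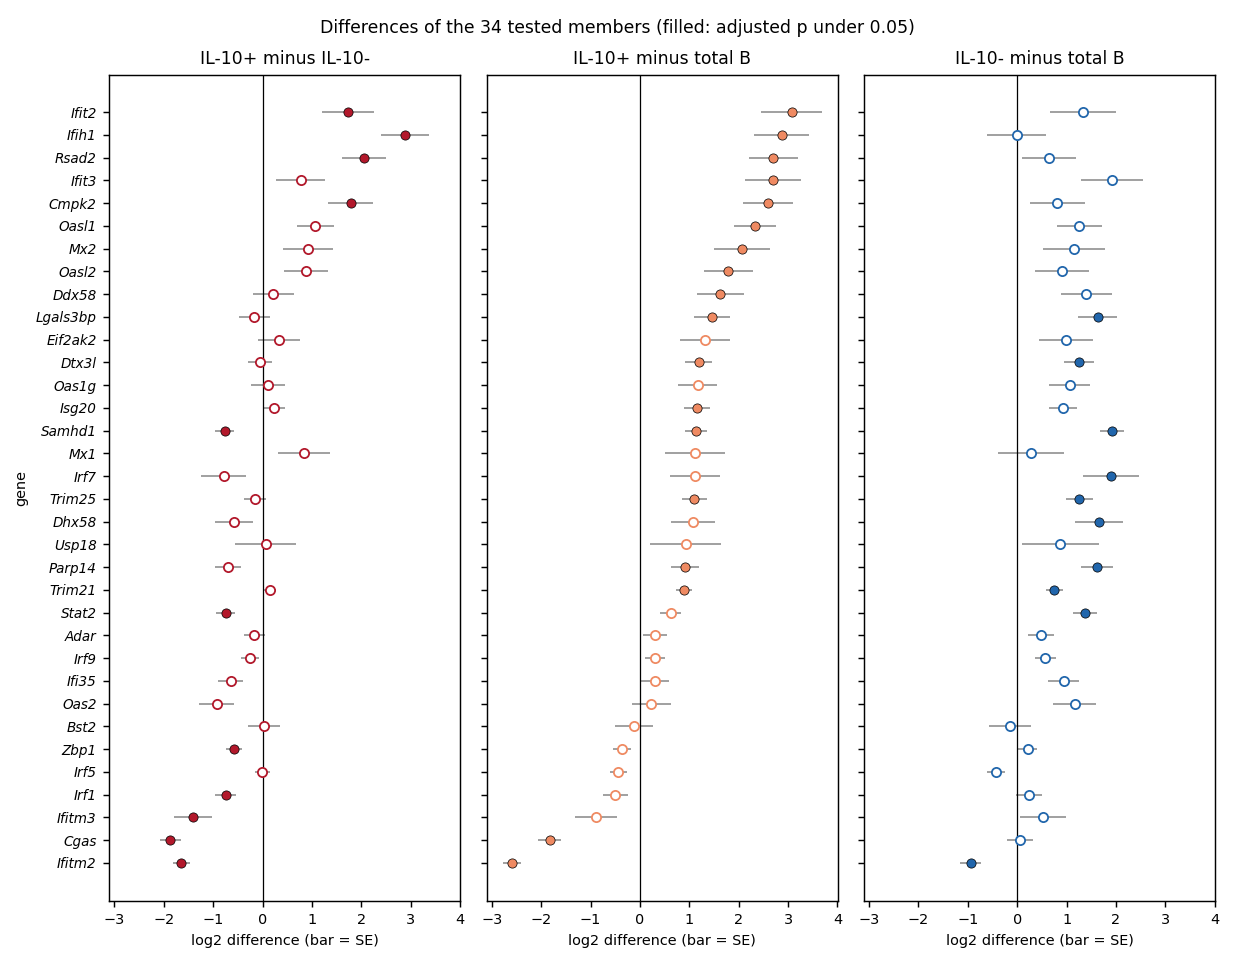
Log2 differences of the 34 tested members for IL-10+ minus IL-10-, IL-10+ minus total B and IL-10- minus total B cells. Rows are ordered by the IL-10+ minus total B difference. Bars are the SE from limma, not 95% intervals, and filled points passed at an adjusted p of 0.05. In the left panel 4 members lie to the right and 7 to the left as filled points, and in both comparisons with total B cells most points lie right of 0.

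Among the IL-10+ arrays, those of slide 1 and slide 2 stood apart in these genes. Of the 34 members, 18 were higher on all 3 IL-10+ arrays of slide 1 than on both of slide 2, 1 (Irf1) was lower on all 3, and 15 overlapped, against 11.3% of all genes higher and 12.7% lower. The median difference of the members was 0.71 log2, beside -0.01 for all genes. The difference was widest for Ifit2 (1.76), Mx2 (1.75), Ifit3 (1.68) and Usp18 (1.58), and near 0 for Samhd1 (0.13), Zbp1 (0.13) and Trim21 (0.18).

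IL-10+ replicate 1 held the highest level of all 10 arrays for 18 members, with a median deviation of 0.80 log2 from the members' own means. IL-10+ replicate 5 had -0.40, and total B replicates 1 and 2 had -0.73 and -1.01. The sources used here do not say what distinguishes the slides beyond being separate chips, so slide was also fitted as a block. With it 7 members were higher and 9 lower in IL-10+ than in IL-10- cells, adding Ifit3, Mx2 and Oasl1 to the higher set and Ifi35 and Parp14 to the lower. Over all genes 1217 were higher and 1180 lower with that block. On slide 1 alone 4 were higher and 3 lower, beside 459 and 290 of all genes. No count is given for slide 2 alone, which held 1 IL-10- array. Without IL-10+ replicate 1, Ifit2 and Irf1 did not pass and Ifi35, Oas2 and Parp14 were called lower.

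**Figure D3:**
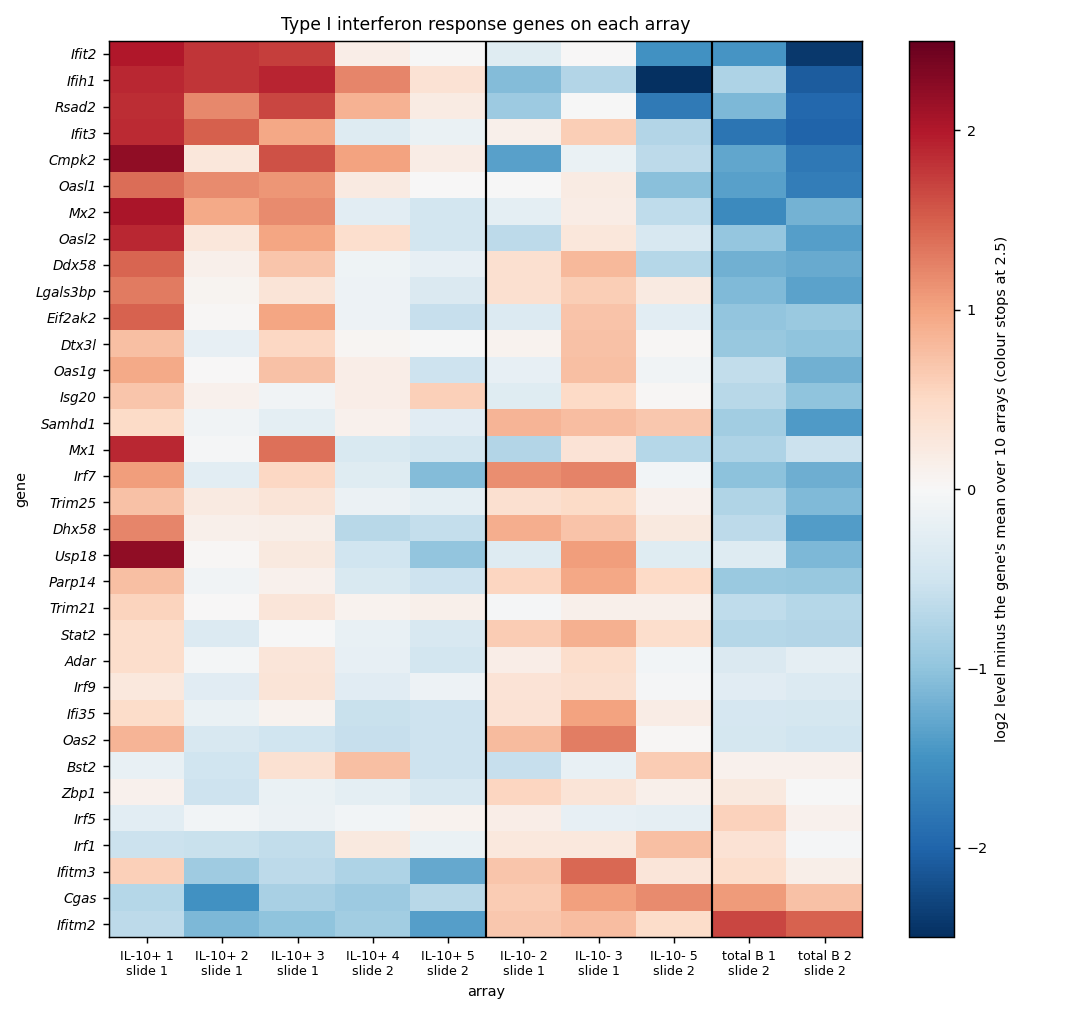
Level of each of the 34 tested members on each of the 10 arrays as the deviation in log2 from that member's mean over all arrays. Columns are IL-10+, IL-10- and total B cells. Rows are ordered by the IL-10+ minus total B difference, so a gradient from top to bottom in that contrast comes from the order of the rows. IL-10+ replicate 1 is high for many members, with the highest level of 18, and total B replicate 2 is low, with the lowest level of 20.

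Interferon genes themselves were at the edge of detection. Ifnb1, the gene of interferon-beta, was at 5.78, 5.97, 5.59, 4.93 and 4.83 on the 5 IL-10+ arrays, 4.43, 4.37 and 4.36 on the 3 IL-10- arrays, and 4.58 and 4.50 on the 2 total B arrays. It was detected on IL-10+ replicates 1, 2 and 3, the IL-10+ arrays of slide 1, and on no other array. The IL-10- arrays of slide 1, replicates 2 and 3, did not detect it. Ifna4, an early interferon-alpha gene, was at 6.84, 7.32, 6.22, 5.06 and 4.66 on the 5 IL-10+ arrays, 4.95, 4.55 and 4.72 on the 3 IL-10- arrays, and 5.08 and 4.45 on the 2 total B arrays. It was detected on the same 3 arrays only, as was Ifna5, while Ifna11 was detected on IL-10+ replicates 1 and 2.

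The limma test called Ifnb1 higher in IL-10+ than in IL-10- cells (adjusted p 0.0172), but the gene was undetected in IL-10- and total B cells throughout, and against the lowest detected signals the mean of the IL-10+ arrays gave no bound above 1, so no fold is given. For Ifna4 the bound was at least 1.23-fold higher than in IL-10- cells and at least 1.35-fold higher than in total B cells, and neither passed (adjusted p 0.123 and 0.167). Interferon-alpha genes are near-identical copies and their probes may share signal, so the identity of the copy is uncertain. Ifna6 was detected on every array and did not differ between fractions beyond the spread (0.16 ± 0.18 log2). The IL-10+ arrays on which Ifnb1 and Ifna4 were detected were those of slide 1, which were also the ones with higher levels of 18 members. Slide and detection of the interferon genes coincided on these arrays and cannot be told apart.

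**Figure D4:**
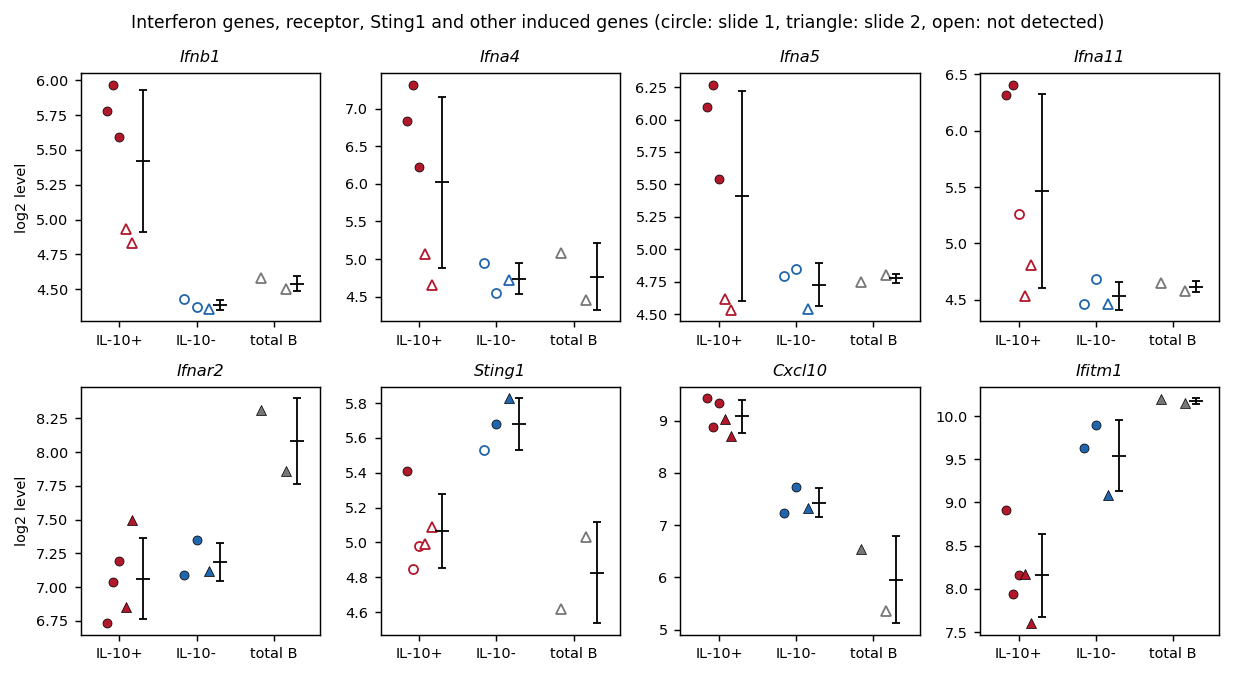
Level (log2 signal) per array of the interferon genes Ifnb1, Ifna4, Ifna5 and Ifna11, the receptor gene Ifnar2, Sting1, Cxcl10 and Ifitm1, with IL-10+, IL-10- and total B cells side by side; circles are slide 1, triangles slide 2, open symbols arrays without detection, and bars the group mean ± SD. Ifnb1 and Ifna4 are detected on the 3 IL-10+ arrays of slide 1 only.

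Of 39 ligand, receptor and signalling genes listed for the pathway 28 were tested, and between IL-10+ and IL-10- cells 1 was higher and 5 lower, beside 9.12% and 9.01% of all genes, with a median of -0.03 log2. The one called higher was Ifnb1, which passed the detection filter only through IL-10+ arrays, so this count of 1 is no support for a higher level. The lower ones were Socs3, a feedback inhibitor of Jak signalling (-1.17 ± 0.28 log2), Ifngr2, a subunit of the interferon-gamma receptor (-0.96 ± 0.23), Ticam1, the adaptor TRIF of Toll-like receptors 3 and 4 (-0.83 ± 0.18), Irf8, a factor of B cell and myeloid development (-0.75 ± 0.20), and Sting1.

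Sting1, the receptor for the messenger that Cgas makes, was at 5.41, 4.85, 4.98, 4.99 and 5.09 on the 5 IL-10+ arrays, 5.53, 5.68 and 5.83 on the 3 IL-10- arrays, and 4.62 and 5.03 on the 2 total B arrays. It was detected on 1 IL-10+ array, 2 IL-10- arrays and neither total B array, and the IL-10- arrays were the highest. Sting1 was 1.53-fold lower in IL-10+ than in IL-10- cells (-0.62 ± 0.16 log2, SE, adjusted p 0.0217).

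Ifnar2, a subunit of the type I receptor, did not pass between the fractions (-0.13 ± 0.18 log2), while the other subunit gene, Ifnar1, was below the detection filter. Jak1 and Tyk2, the receptor's kinases, differed by -0.24 ± 0.18 and 0.48 ± 0.16 log2, and neither passed.

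A second list held 55 other interferon-induced genes, of which 34 were tested, and here 3 were higher in IL-10+ than in IL-10- cells and 6 lower, beside the same 9.12% and 9.01% of all genes, with a median of -0.13 log2. The higher count was close to that background. Cxcl10, a chemokine that attracts activated T cells, was at 9.44, 8.88, 9.35, 9.03 and 8.71 on the 5 IL-10+ arrays, 7.23, 7.74 and 7.33 on the 3 IL-10- arrays, and 6.54 and 5.36 on the 2 total B arrays. The 3 groups did not overlap, and it was 3.13-fold higher (1.65 ± 0.27 log2, SE, adjusted p 0.00251). Psmb8, an immunoproteasome subunit, was 1.79-fold higher and Sp140, a nuclear-body protein, 2.22-fold higher (adjusted p 0.00567 and 0.0411). Ifitm1, the relative of Ifitm2 and Ifitm3, was at 8.91, 7.94, 8.16, 8.17 and 7.60 on the 5 IL-10+ arrays, 9.63, 9.90 and 9.09 on the 3 IL-10- arrays, and 10.20 and 10.15 on the 2 total B arrays. It was 2.61-fold lower (-1.39 ± 0.27 log2, SE, adjusted p 0.00652), and all 3 transmembrane genes thus passed in the same direction.

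Against total B cells the direction was mostly upward. In IL-10+ cells 16 of 34 members were higher and 2 lower (limma, adjusted p under 0.05), beside 12.0% of all genes called higher and 10.4% lower, and 16 did not pass. The median difference was 1.11 log2 for the members and -0.01 for all genes. In IL-10- cells 9 members were higher and 1 lower, beside 7.51% and 6.04% of all genes, and 24 did not pass, with medians of 0.94 for the members and 0.01 for all genes. All total B arrays were on slide 2. With slide as a block the members' median was 0.67 in IL-10+ and 0.51 in IL-10- cells, and on slide 2 alone it was 0.55 and 0.59. Both comparisons use the same 2 total B arrays, so they are not independent of each other.

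Leaving out either total B array leaves a single one, assumed to vary like the other groups. Then 9 members were called higher in IL-10+ cells without replicate 1 and 2 without replicate 2 (Oasl1 and Trim21), and 2 in IL-10- cells without either (Samhd1 and Stat2). With slide as a block 13 were higher in IL-10+ cells and 4 in IL-10- cells, beside 1370 and 680 of all 11185 genes. On slide 2 alone, which held all total B arrays, 14 were higher in IL-10+ cells, beside 1165 of all genes. IL-10- cells had a single array there, so no count is given for them. In IL-10- cells 5 were higher when IL-10- replicate 3 was left out. There were 14 when IL-10+ replicate 1 was left out, which enters through the shared estimate of the spread, and Ifitm2 was not called lower without either total B array. Scaling to the median over all probes, which moved the median of all genes to -0.26 log2 for IL-10- minus total B cells, left 2 members higher there. Of all 11185 genes 99 were then higher.

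All 6 members tested of the group of IFIT proteins, viperin and nucleotide enzymes were higher in IL-10+ than in total B cells, beside 12.0% of all genes. Ifit2 was 8.41-fold higher (3.07 ± 0.61 log2, SE, adjusted p 0.00566) and Rsad2 6.50-fold higher (2.70 ± 0.50, adjusted p 0.00402). With slide as a block the log2 differences were smaller, at 2.10 for Ifit2 and 2.02 for Rsad2, and on slide 2 alone they were 2.01 and 2.08, all past the threshold. Cmpk2, undetected on both total B arrays, was at least 3.31-fold higher (adjusted p 0.00546), and it had passed the detection filter only through IL-10+ arrays. Ifit3 was at 9.39, 9.02, 8.50, 7.21 and 7.37 on the 5 IL-10+ arrays, 7.65, 8.15 and 6.79 on the 3 IL-10- arrays, and 5.70 and 5.52 on the 2 total B arrays. Both total B arrays lay below all sorted arrays, and Ifit3 was 6.45-fold higher in IL-10+ than in total B cells (2.69 ± 0.57 log2, SE, adjusted p 0.00768). In IL-10- cells Ifit3 was 3.78-fold above total B cells and did not pass (1.92 ± 0.62, adjusted p 0.0671). With slide as a block Ifit3 was 1.80 log2 higher in IL-10+ cells and on slide 2 alone 1.68. The single IL-10- array of that slide was 1.17 log2 above total B cells.

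Isg20 was at 7.65, 7.06, 6.86, 7.11 and 7.55 on the 5 IL-10+ arrays, 6.64, 7.45 and 6.98 on the 3 IL-10- arrays, and 6.25 and 5.94 on the 2 total B arrays. Total B arrays were lowest, and it was 2.23-fold higher in IL-10+ than in total B cells (1.16 ± 0.26 log2, SE, adjusted p 0.00991). Samhd1 was the member of this group that passed in both sorted fractions, 2.21-fold higher in IL-10+ cells (adjusted p 0.00453) and 3.77-fold higher in IL-10- cells (adjusted p 0.00149) than in total B cells.

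Among the sensors, Ifih1 was 7.31-fold higher in IL-10+ than in total B cells (2.87 ± 0.55 log2, SE, adjusted p 0.00454), against -0.01 ± 0.60 log2 for IL-10- cells. The IL-10+ value was 2.11 with slide as a block and 2.23 on slide 2 alone, and it passed in both. Ddx58 was at 7.63, 6.30, 6.87, 6.07 and 5.97 on the 5 IL-10+ arrays, 6.57, 6.99 and 5.47 on the 3 IL-10- arrays, and 4.97 and 4.91 on the 2 total B arrays. It was undetected on both total B arrays and on IL-10- replicate 5. It was at least 1.98-fold higher in IL-10+ cells (adjusted p 0.0306) and at least 1.69-fold higher in IL-10- cells, which did not pass (adjusted p 0.0943). The IL-10+ call of Ddx58 was lost with slide as a block (adjusted p 0.0599).

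Dhx58 was at 8.16, 7.06, 7.08, 6.24 and 6.33 on the 5 IL-10+ arrays, 7.84, 7.65 and 7.18 on the 3 IL-10- arrays, and 6.27 and 5.53 on the 2 total B arrays. All IL-10- arrays were above both total B arrays, which overlapped the IL-10+ arrays. Dhx58 was 3.15-fold higher in IL-10- than in total B cells (1.66 ± 0.49 log2, SE, adjusted p 0.0480), and it failed in 6 of 10 omissions of a single array, up to 0.256 without total B replicate 2, and with slide as a block (adjusted p 0.120). IL-10+ cells differed from total B cells by 1.08 ± 0.45 log2, which did not pass.

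Transcription factors passed in IL-10- cells only, where 2 of 5 were higher than in total B cells, beside 7.51% of all genes. The test that sets the fractions against each other passed for Stat2 and not for Irf7. Stat2 was 2.59-fold higher in IL-10- than in total B cells (1.37 ± 0.24 log2, SE, adjusted p 0.00668), and in IL-10+ cells the difference was 0.62 ± 0.22 log2 (adjusted p 0.0674). Irf7 was at 7.02, 5.71, 6.49, 5.68 and 4.90 on the 5 IL-10+ arrays, 7.14, 7.21 and 5.90 on the 3 IL-10- arrays, and 4.94 and 4.76 on the 2 total B arrays. It was undetected on both total B arrays and on IL-10+ replicate 5. In IL-10- cells it was at least 2.25-fold higher (adjusted p 0.0471), a call lost in 7 of 10 omissions of a single array and with slide as a block (adjusted p 0.0935), and in IL-10+ cells at least 1.30-fold (adjusted p 0.145).

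Of the 8 Mx, Oas, PKR and ADAR members tested 3 were higher in IL-10+ than in total B cells and none in IL-10- cells, beside 12.0% and 7.51% of all genes. Mx2, a dynamin-like GTPase, was at 9.48, 8.39, 8.61, 7.18 and 6.97 on the 5 IL-10+ arrays, 7.19, 7.62 and 6.81 on the 3 IL-10- arrays, and 5.85 and 6.26 on the 2 total B arrays. Total B arrays were lowest, and the slide 1 arrays of IL-10+ cells were highest. Mx2 was 4.20-fold higher in IL-10+ than in total B cells (2.07 ± 0.57 log2, SE, adjusted p 0.0262), and 2.22-fold higher in IL-10- cells, which did not pass (adjusted p 0.250). Mx2 was 1.27 log2 higher in IL-10+ cells with slide as a block (adjusted p 0.0423), and on slide 2 alone 1.02 (adjusted p 0.0214).

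Oasl1 was at 12.85, 12.64, 12.56, 11.67 and 11.47 on the 5 IL-10+ arrays, 11.45, 11.65 and 10.41 on the 3 IL-10- arrays, and 10.10 and 9.72 on the 2 total B arrays. IL-10- replicate 3 lay above IL-10+ replicate 5, and all sorted arrays were above the total B arrays. Oasl1 was 5.03-fold higher in IL-10+ than in total B cells (2.33 ± 0.42 log2, SE, adjusted p 0.00352), and this passed under each of the 21 alternatives tried, at 1.65 log2 with slide as a block. Oasl2, a relative with oligoadenylate synthetase activity in mice, was at 9.17, 7.56, 8.26, 7.70 and 6.82 on the 5 IL-10+ arrays, 6.63, 7.56 and 6.87 on the 3 IL-10- arrays, and 6.32 and 5.91 on the 2 total B arrays. It was 3.45-fold higher in IL-10+ than in total B cells (1.79 ± 0.50 log2, SE, adjusted p 0.0276), with total B arrays lowest. Its call was lost with slide as a block (1.33, adjusted p 0.0861) and on slide 2 alone (1.14, adjusted p 0.0519).

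Of the ubiquitin-like and ADP-ribose modifiers 4 of 5 tested were higher in each sorted fraction than in total B cells, the same 4 genes in both. Of all genes 12.0% were called higher in IL-10+ and 7.51% in IL-10- cells. Parp14 no longer passed in IL-10+ cells with slide as a block (adjusted p 0.138), nor did Dtx3l and Trim21 in IL-10- cells (adjusted p 0.0664 and 0.0523). Trim21, an antibody receptor of the cytosol and a ubiquitin ligase, was at 8.46, 7.92, 8.21, 8.0 and 8.04 on the 5 IL-10+ arrays, 7.88, 8.04 and 8.04 on the 3 IL-10- arrays, and 7.28 and 7.20 on the 2 total B arrays. The total B arrays were lowest. Trim21 was 1.85-fold higher in IL-10+ cells (0.89 ± 0.16 log2, SE, adjusted p 0.00327) and 1.68-fold higher in IL-10- cells (0.75 ± 0.17, adjusted p 0.0201) than in total B cells.

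Trim25, the ubiquitin ligase that activates RIG-I, was at 11.05, 10.54, 10.63, 10.16 and 10.07 on the 5 IL-10+ arrays, 10.71, 10.80 and 10.42 on the 3 IL-10- arrays, and 9.57 and 9.21 on the 2 total B arrays. Every sorted array exceeded both total B arrays. It was 2.15-fold higher in IL-10+ cells (adjusted p 0.0103) and 2.39-fold higher in IL-10- cells (adjusted p 0.0156). Between the sorted fractions Trim25 differed by -0.15 ± 0.22 log2 (95% interval -0.63 to 0.33) and Trim21 by 0.14 ± 0.14 (95% interval -0.17 to 0.45).

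Dtx3l, a ubiquitin ligase that works with Parp9, was at 9.57, 8.61, 9.34, 8.86 and 8.81 on the 5 IL-10+ arrays, 8.91, 9.55 and 8.84 on the 3 IL-10- arrays, and 7.88 and 7.82 on the 2 total B arrays. It was 2.28-fold higher in IL-10+ cells (adjusted p 0.0113) and 2.38-fold higher in IL-10- cells (adjusted p 0.0226) than in total B cells. Parp14, an ADP-ribosyl transferase, was at 11.15, 10.32, 10.51, 10.03 and 9.88 on the 5 IL-10+ arrays, 10.94, 11.38 and 10.91 on the 3 IL-10- arrays, and 9.47 and 9.46 on the 2 total B arrays. It was 3.05-fold higher in IL-10- cells (1.61 ± 0.32 log2, SE, adjusted p 0.0114) and 1.88-fold higher in IL-10+ cells (0.91 ± 0.29, adjusted p 0.0474) than in total B cells. A second Parp14 probe gave -0.39 log2 for IL-10+ minus total B cells, and the call was lost in 7 of 10 omissions of a single array. Usp18, the fifth modifier tested, did not pass in either comparison, at 0.93 ± 0.72 and 0.87 ± 0.78 log2.

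Lgals3bp was at 9.87, 8.64, 8.88, 8.44 and 8.20 on the 5 IL-10+ arrays, 8.97, 9.17 and 8.78 on the 3 IL-10- arrays, and 7.46 and 7.23 on the 2 total B arrays. Both total B arrays were below every sorted array, and IL-10+ replicate 1 was the highest. It was 2.75-fold higher in IL-10+ cells (1.46 ± 0.36 log2, SE, adjusted p 0.0151) and 3.10-fold higher in IL-10- cells (1.63 ± 0.39, adjusted p 0.0228) than in total B cells, a call that was lost in IL-10- cells with slide as a block (adjusted p 0.0609). Ifitm2 was the member that was lower in both fractions, 6.01-fold in IL-10+ cells (-2.59 ± 0.19 log2, SE, adjusted p 3e-05) and 1.92-fold in IL-10- cells (-0.94 ± 0.21, adjusted p 0.0167). Ifitm3 did not pass against total B cells in IL-10+ cells (-0.89 ± 0.43) or in IL-10- cells (0.52 ± 0.47). In IL-10+ cells it passed as lower with slide as a block (-1.33, adjusted p 0.0461) and on slide 2 alone (-1.32, adjusted p 0.0142).

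For 10 members more than 1 probe passed the filter, and their signs were mixed for Adar (both comparisons with total B cells), for Irf9 and Parp14 (IL-10+ minus total B) and for Irf1 (IL-10- minus total B). Between the sorted fractions every gene with several kept probes had the same sign on all of them.

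Counting arrays in place of tests, 21 members were higher on all IL-10+ arrays than on both total B arrays and 3 lower, beside 21.4% and 21.7% of all genes. On IL-10- arrays 21 members were higher and 1 lower, beside 21.8% and 20.8%. Between the sorted fractions 3 members were higher on all IL-10+ arrays and 6 lower, beside 11.6% and 12.9% of all genes.

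The same 2 comparisons of the other interferon-induced genes gave 19 of 34 higher and 2 lower in IL-10+ than in total B cells (median 1.07 log2), and 16 higher and 1 lower in IL-10- than in total B cells (median 1.01). Gbp2 and Gbp3, guanylate-binding GTPases that attack pathogen vacuoles, were 4.83-fold and 5.09-fold higher in IL-10+ cells and 7.84-fold and 4.88-fold higher in IL-10- cells. Ifi205, a nuclear protein of the family with DNA-binding HIN domains, was lower in both fractions (adjusted p 0.00171 in IL-10+ and 0.00235 in IL-10- cells). Its probe was detected on 1 IL-10+ array, no IL-10- array and both total B arrays, at 4.50 to 5.66, 4.48 to 4.59, and 6.67 to 7.09 log2, so the size of the IL-10+ difference rests mostly on undetected values, and in IL-10- cells it was at least 2.23-fold. Of 28 tested, the ligand, receptor and signalling list had 4 higher (Ifnb1 among them, undetected in total B cells) and 4 lower in IL-10+ cells (median -0.05). In IL-10- cells it had 3 higher and 2 lower (median -0.02). These counts were near the shares of all genes, 12.0% higher and 10.4% lower for IL-10+ cells and 7.51% and 6.04% for IL-10- cells. Tlr7, an endosomal sensor of single-stranded RNA, was 2.34-fold higher in IL-10+ cells and 1.92-fold higher in IL-10- cells, and Ifnar2 was 2.04-fold lower in IL-10+ cells and 1.86-fold lower in IL-10- cells (adjusted p 0.00686 and 0.0298).

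Markers of other cell types moved with the fractions in part. Plasmacytoid dendritic cells, which make much type I interferon, were represented by 3 tested markers of 6. Siglech was 2.03-fold lower in IL-10+ than in IL-10- cells, Cox6a2 was undetected on all IL-10+ arrays and at least 1.10-fold lower, and Pacsin1 was 2.47-fold higher. The summed signal of these markers was 1238 to 2313 on IL-10+ arrays, 918 to 1230 on IL-10- arrays and 1110 to 1323 on total B arrays. Pacsin1 was the largest term of this sum on every array, so the sum mostly follows that probe and does not measure the share of these cells. Of 8 macrophage and monocyte markers 3 were tested, with a summed signal of 2656 to 3971 on IL-10+ arrays, 941 to 1702 on IL-10- arrays and 992 to 1371 on total B arrays. Mpeg1, which encodes a pore-forming protein, was 2.98-fold higher in IL-10+ than in IL-10- cells, and it was the largest term of that sum on every array. The other tested markers, Adgre1 and Cd68, differed by -0.06 ± 0.48 and -0.10 ± 0.30 log2 (SE) and did not pass, and Csf1r, Cd14, Lyz1, Lyz2 and C1qa were below the detection filter.

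Of 6 T cell markers 2 were tested. Cd3g, a chain of the T cell receptor complex, was detected on 3 IL-10+ arrays and on no other array, and it was called higher in IL-10+ than in IL-10- cells (adjusted p 0.00432) and at least 1.09-fold higher than in total B cells (adjusted p 0.0110). Lat, an adaptor of that receptor, did not pass, and Cd3d, Cd3e, Cd4 and Cd8a were below the detection filter. The summed signal of both tested markers was 75 to 100 on IL-10+ arrays, 53 to 135 on IL-10- arrays and 55 to 86 on total B arrays.

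No marker of natural killer cells or neutrophils passed the filter. The erythroid marker Hbb-b1 had a signal of 158 to 296 on IL-10+ arrays, 404 to 786 on IL-10- arrays and 927 to 1115 on total B arrays. The part of other cell types in the interferon results was not tested.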

How the data were processed

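RNA of 10 samples was hybridised to Illumina MouseWG-6 beadchips. The authors deposited each probe's linear, non-normalized intensity averaged over its beads, with the bead number, and the submitters' processing notes name GenomeStudio 1.9.0 and lumi. A deposited detection score, higher for brighter probes, was subtracted from 1 to give the detection p. A deposited table of processed values was not used, since its probes carry other identifiers.

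Background correction and quantile normalization used neqc (offset 16) of limma 3.58.1 in R 4.3.3. The filter kept 16496 of 45281 probes, those whose detection p was below 0.01 on 2 or more arrays, and the probe with the highest mean stood for each gene. Of the file's 30854 names, 16223 matched a RefSeq symbol, 5706 a synonym of 1 gene, 117 were ambiguous and 8808 unmatched. The sources used here do not give a build for the probes, so they have no coordinates.

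All 10 arrays in 3 groups entered 1 fit (lmFit and eBayes, two-sided, 7 residual degrees of freedom, 10.6 after moderation), with Benjamini-Hochberg adjustment over all 11185 genes at 0.05. Where no array of a group detected a gene, it got an "at least" fold, from the brighter group's mean against, per array, the higher of the lowest detected signal and the probe's own value. Every member is accounted for, with those that passed given on each array. Genes outside the list were named where they passed or were receptor, kinase or ligand genes. Of the promoters of passing members those with an ISRE match were printed, with that of Ifit3 for contrast. Some listed genes are not reported here and are left out of the counts of their lists. The members and lists were chosen with earlier results of these data known.

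Replicate numbers in the titles were taken to pair IL-10+ and IL-10- arrays, since deviations from the group means correlated at 0.348, 0.238 and 0.319 for replicates 2, 3 and 5. These pairs also share slides, and IL-10+ replicate 4 with IL-10- replicate 5, which share a slide and not a number, gave 0.276. Tested on simulated data of 11185 genes with 200 changed, the fit recovered 14.9%, 62.7% and 95.5% of changes of 0.5, 1 and 2 log2 between IL-10+ and IL-10- cells, with 6 false calls. Against total B cells it recovered 4.48%, 50.7% and 89.4% for IL-10+ cells (8 false calls) and 4.48%, 43.3% and 87.9% for IL-10- cells (3 false calls). Alternatives covered background, scaling, filter, choice of probe, slide, replicate block, the arrays in the fit and each array left out.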

Additional observations from a re-analysis of the deposited data

Results flagged for a closer look

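Each tested member was checked for a single IL-10+ array far from the other 4, and 2 of the 34 were found, about what chance gives, since it flags about 1 in 20 groups. Oas2 was at 5.96 log2 on IL-10+ replicate 1, beside 4.53 to 4.71 on the other IL-10+ arrays, on which its probe was not detected. Cgas was at 5.95 log2 on IL-10+ replicate 2, beside 6.54 to 6.77 on the others, and all of these lay below the IL-10- and total B arrays.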

How the results depend on the processing

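Counts of members past the threshold depended on the scaling, the slides and single arrays. Between IL-10+ and IL-10- cells the count of higher members was 4 and became 8 under median scaling over all probes and 7 with slide as a block. The count of lower members was 7 and became 2 under that median scaling, 4 without a filter on detection, 3 on slide 1 alone and 11 with the replicate block. No count is given for slide 2 alone, which held 1 IL-10- array. Leaving out single arrays gave 2 to 5 higher and 2 to 9 lower members. Counts over all 11185 genes moved as well. They were 1020 higher and 1008 lower in the main fit and 2440 and 78 under that median scaling. With slide as a block they were 1217 and 1180, and with the replicate block 684 and 647. Median scaling over all probes moved the median of all genes to 0.48, 0.23 and -0.26 log2 in the 3 comparisons (IL-10+ with IL-10-, IL-10+ with total B, IL-10- with total B), and Zbp1 reversed there, to 0.04 log2 (adjusted p 0.923).

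In IL-10+ compared with total B cells, leaving out single arrays gave 2 to 18 higher members (main count 16) and 2 to 3 lower (main count 2). In IL-10- compared with total B cells, the count of higher members was 9 and became 2 under median scaling over all probes and 4 with slide as a block, and 2 to 14 with single arrays left out. It was 14 without IL-10+ replicate 1, which enters there through the shared estimate of the spread, and 5 without IL-10- replicate 3. The count of lower members was 1 and became 0 in a fit of those 2 groups alone, and 0 to 1 with single arrays left out.

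Of 841 alternative values for the 39 member results that passed, 687 passed in the same direction, 153 kept the direction without passing and 1 reversed. Cgas, Ifih1, Ifitm2 and Rsad2 passed between IL-10+ and IL-10- cells under each of 23 alternatives. One alternative, raising undetected values to the lowest detected signal of their array, was chosen after seeing the data. Causes of these shifts were not tested. Signal close to background limits Mx1, Bst2, Oas2, Sting1 and the interferon genes.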
